A study of Homo sapiens with 12 samples.

Results

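Claudins are the membrane proteins that build the strands of tight junctions. Transcripts of 10 claudin genes, CLDN1, CLDN2, CLDN3, CLDN4, CLDN5, CLDN6, CLDN7, CLDN10, CLDN12 and CLDN18, were compared across 12 bulk RNA-seq libraries of stem-cell-derived islet-like cells. The 10 genes were chosen by name from the 60624 genes listed in the count tables, with earlier results of these data known. The cells came from expandable pancreatic progenitors (ePPs) of MEL1, a human embryonic stem cell line, and were collected at day 8 in a medium named R6. In the NKX2-2 experiment, 3 libraries of cells with a knockout (KO) of NKX2-2, which encodes a homeodomain factor needed for islet cell types, were set against 3 wild-type (WT) libraries. A separate experiment set 3 libraries with a KO of CLEC16A, a regulator of mitophagy, against 3 WT libraries of its own. The sample titles shorten the genes to N2 and C16, and the names of the deposited tables spell them out.

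By their labels, all 4 groups share their history and medium. The progenitors had been kept on feeder cells in EF6I medium with B27, EGF, bFGF, 616452 and I-BET151. R6 medium held B27, BSA, zinc sulfate, heparin, 616452, T3, LDN-193189, Compound E, vitamin C and forskolin. No label names an edited clone, the edit made, or separate cultures behind the replicates. Lines that differ for other reasons therefore cannot be told apart from the knockout, and the p-values rest on the spread among replicate libraries, which may be only technical. In bulk RNA, fewer cells of a type and less RNA per cell cannot be told apart either.

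Neighbouring epithelial cells are sealed where claudins of one cell bind those of the next, and the claudins present set which ions and solutes pass between the cells. Some claudins mainly tighten the seal, and others form pores for cations, anions or water. On the inner face of the membrane, most claudins bind the ZO scaffold proteins, which tie the strands to actin. Pancreatic progenitors form a polarised epithelium with tight junctions, which endocrine cells leave as they differentiate.

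Per-gene tests used the deposited counts. Libraries held 16157481 to 20649976 counts in the NKX2-2 experiment and 31364272 to 33763795 in the CLEC16A experiment, of which the 10 claudins took 6369 to 8931 and 14150 to 34992. No replicate pair was alike within sampling noise. Levels are given as CPM, the usual library-scaled counts, on sizes corrected by the trimmed mean of M values (TMM), and fold changes are KO over WT. A gene was called where the adjusted p was under 0.05 (edgeR quasi-likelihood test, Benjamini-Hochberg over all genes tested). Transcript levels do not check the knockout labels. NKX2-2 had 91.9, 68.0 and 68.3 CPM in NKX2-2 KO libraries, against 95.4, 96.6 and 93.4 CPM in NKX2-2 WT libraries (log2 fold change -0.32 ± 0.12 SE, edgeR adjusted p = 0.0610). Without NKX2-2 KO replicate 1 that difference was called, at -0.50 (edgeR adjusted p = 0.00230), as it was by DESeq2 (adjusted p = 0.0393), and over 17 alternatives the adjusted p ran from 0.00192 to 0.235. CLEC16A had 35.4, 38.0 and 36.8 CPM in CLEC16A KO libraries, against 36.2, 30.1 and 30.8 CPM in CLEC16A WT libraries (log2 fold change 0.18 ± 0.09 SE, edgeR adjusted p = 0.0949). Without CLEC16A WT replicate 1 it was called as higher, at 0.27 (edgeR adjusted p = 0.0335), with a range of 0.0335 to 0.942 over 16 alternatives. KO and WT below therefore mean the libraries so labelled.

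Promoter windows are shown for CLDN7, CLDN4, CLDN3 and CLDN2, which are 4 of the 5 members called lower in NKX2-2 KO and higher in CLEC16A KO libraries. The remaining one, CLDN6, is not shown, since its NKX2-2 call held in only 9 of 17 alternatives. Its CLEC16A call held in 14 of 16 alternatives, against 11 of 16 for CLDN3, which is shown. Each window runs from 250 bases before to 50 after the first transcribed base (RefSeq, GRCh38.p14) and is written 5′ to 3′ on the gene's own strand. CLDN7 lies at chr17:7262429-7262728 on the minus strand, CLDN4 at chr7:73830746-73831045 on the plus strand, CLDN3 at chr7:73770221-73770520 on the minus strand and CLDN2 at chrX:106899914-106900213 on the plus strand. CLDN7 and CLDN2 have a second RefSeq start site whose window is not shown. Capitals mark CAGGTG or its reverse complement CACCTG, the E-box letters that the repressors SNAI1, SNAI2, ZEB1 and ZEB2 are known to bind.
CLDN7: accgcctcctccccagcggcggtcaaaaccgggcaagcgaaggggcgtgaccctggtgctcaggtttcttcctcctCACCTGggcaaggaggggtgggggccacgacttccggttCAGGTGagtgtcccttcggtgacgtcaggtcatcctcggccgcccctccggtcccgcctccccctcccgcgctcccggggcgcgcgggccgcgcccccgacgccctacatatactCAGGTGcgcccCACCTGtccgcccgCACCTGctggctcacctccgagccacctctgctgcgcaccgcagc
CLDN4: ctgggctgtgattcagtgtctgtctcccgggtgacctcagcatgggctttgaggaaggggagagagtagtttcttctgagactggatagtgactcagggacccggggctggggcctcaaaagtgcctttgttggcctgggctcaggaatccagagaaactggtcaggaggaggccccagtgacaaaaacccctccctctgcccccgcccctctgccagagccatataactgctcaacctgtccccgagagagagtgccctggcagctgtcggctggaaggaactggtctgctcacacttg
CLDN3: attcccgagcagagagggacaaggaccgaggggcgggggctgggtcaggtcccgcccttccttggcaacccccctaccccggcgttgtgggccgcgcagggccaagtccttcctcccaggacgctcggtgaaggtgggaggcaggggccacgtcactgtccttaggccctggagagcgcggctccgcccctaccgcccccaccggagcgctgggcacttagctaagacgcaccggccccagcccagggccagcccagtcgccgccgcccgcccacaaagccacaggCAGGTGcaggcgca
CLDN2: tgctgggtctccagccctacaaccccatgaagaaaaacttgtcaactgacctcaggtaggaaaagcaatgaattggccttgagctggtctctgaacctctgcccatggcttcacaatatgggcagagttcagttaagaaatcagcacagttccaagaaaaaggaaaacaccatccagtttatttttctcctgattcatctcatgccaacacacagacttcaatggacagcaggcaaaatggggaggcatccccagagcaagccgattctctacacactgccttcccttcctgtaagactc

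The CLDN7 window held 5 matches to CAGGTG on either strand, the CLDN3 window held 1, and the CLDN4 and CLDN2 windows held none. Of 35116 RefSeq windows of the same length, 20.6% held at least 1 match and 0.0940% held 5 or more. The cut of 5 is the number found in the CLDN7 window, so the last share describes that window and is no test. GC content was 71.7% in the CLDN7 window, against a median of 58.7% over all windows, and the shares are not matched for it. Windows were found for 9 of the 10 members, 13 windows in all, and CLDN5 had none. At least 1 CAGGTG match stood in 4 of the 13 windows, the others being 1 each of CLDN6 and CLDN18. The GC box GGGCGG stood in 7 of the 13 windows, against 45.0% of all windows, with 6 matches in the CLDN3 window. TNAAGTG, the core letters bound by NKX2 homeodomain proteins, stood in 2 of the 13, those of CLDN6 and CLDN18, against 10.2% of all windows. Neither TTTATG, the letters of a CDX site (10.6% of all windows), nor AACCGGTT, those of a grainyhead site (0.134%), was found in a member's window. All motifs were searched on both strands, and a match describes letters and not binding.

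CLDN2, CLDN3, CLDN4, CLDN6 and CLDN7 were called lower in NKX2-2 KO and higher in CLEC16A KO libraries, and CLDN5 was called higher in NKX2-2 KO and lower in CLEC16A KO libraries. The 4 other members were not called in opposite directions. Among the 10 members tested in the NKX2-2 experiment, 1 was called higher in KO (CLDN5) and 5 were called lower (CLDN2, CLDN3, CLDN4, CLDN6 and CLDN7). Over all 17436 genes tested there, 33.4% were called, 16.6% as higher and 16.8% as lower. The members' median log2 fold change was -0.32, against 0.03 for all genes. At least 2-fold changes were called for CLDN5 upwards and for CLDN4 and CLDN7 downwards, where 7.28% of all genes were called at least 2-fold higher and 5.53% at least 2-fold lower. KO and WT libraries did not overlap for 6 of the 10 members, against 45.5% of all genes.

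With CLEC16A knockout, 6 of the 9 members tested were called higher (CLDN1, CLDN2, CLDN3, CLDN4, CLDN6 and CLDN7) and 2 lower (CLDN5 and CLDN18). Of all 19958 genes tested in that experiment, 45.0% were called, 23.7% as higher and 21.3% as lower. On TPM, by limma, 40.5% of the calls were higher, against 52.7% on counts. The median over the 9 members was 0.62 on the log2 scale, against -0.01 for all genes. CLDN2, CLDN4 and CLDN7 were called at least 2-fold higher, as were 8.74% of all genes, and CLDN5 at least 2-fold lower, as were 5.16%. KO and WT libraries did not overlap for 9 of the 10 members, against 53.8% of the genes tested. CLDN12 overlapped, and the 9 include CLDN10, which had too few counts to be tested and so lies outside the genes of that share.

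**Figure D1:**
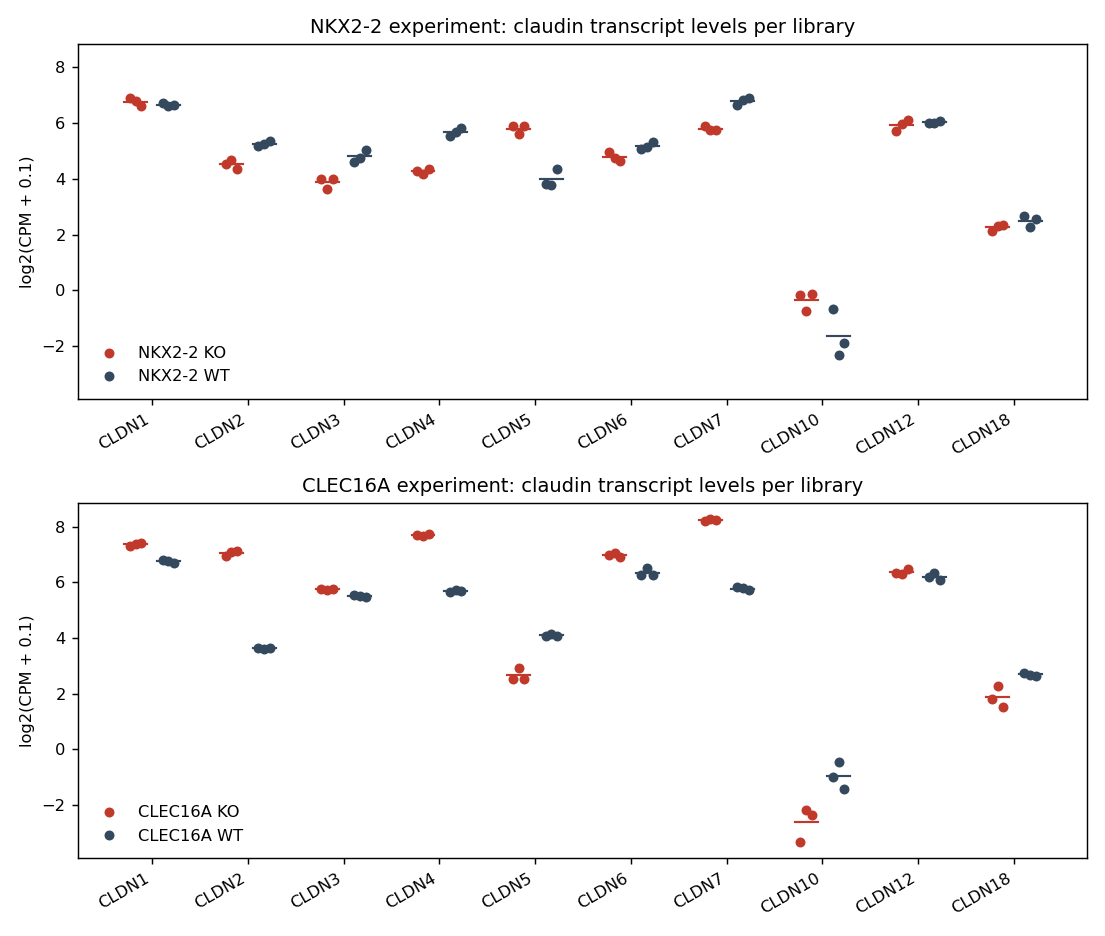
Level of each claudin in every library on a log axis, log2(CPM + 0.1), for the NKX2-2 experiment (top) and the CLEC16A experiment (bottom). Points are single libraries, red for KO and dark blue for WT, and bars are means of 3. CLDN2, CLDN4 and CLDN7 lie lower in NKX2-2 KO and higher in CLEC16A KO libraries, and CLDN5 lies the other way.

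Among the sealing claudins of simple epithelia, CLDN7 (ENSG00000181885.18, chr17:7259903-7263983, minus strand, GENCODE v29, hg38) is a claudin of the lateral membrane of gut and duct epithelium that binds EPCAM. It had 58.7, 53.8 and 54.2 CPM in NKX2-2 KO libraries, against 100.5, 114.5 and 118.5 CPM in NKX2-2 WT libraries. Every KO library lay below every WT library, and the fall was 2.00-fold (log2 fold change -1.0 ± 0.10 SE, edgeR adjusted p = 9.43e-06). With CLEC16A knockout the order was turned round, and the gap was wider. CLDN7 had 293, 306 and 299 CPM in CLEC16A KO libraries, against 56.4, 55.2 and 52.4 CPM in CLEC16A WT libraries. That is a 5.47-fold rise (log2 fold change 2.45 ± 0.07 SE, edgeR adjusted p = 5.42e-18).

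CLDN4 (ENSG00000189143.9, chr7:73799542-73832693, plus strand) is a sealing claudin of duct, gut and kidney epithelium and a receptor for a clostridial enterotoxin. In NKX2-2 KO libraries it had 19.5, 18.0 and 20.3 CPM, against 46.2, 51.4 and 56.6 CPM in NKX2-2 WT libraries. The groups did not overlap, and the 2.67-fold fall was the largest fall among the 10 members in that experiment (log2 fold change -1.41 ± 0.12 SE, edgeR adjusted p = 1.46e-06). With CLEC16A knockout it had 209.5, 201 and 213 CPM in KO libraries, against 49.6, 52.6 and 50.9 CPM in CLEC16A WT libraries. These groups did not overlap either, and CLDN4 rose 4.07-fold (log2 fold change 2.03 ± 0.06 SE, edgeR adjusted p = 1.01e-16).

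CLDN3 (ENSG00000165215.6, chr7:73768997-73770270, minus strand), another receptor for that toxin and a neighbour of CLDN4 on chromosome 7, also tightens epithelia. It had 16.01, 12.5 and 15.7 CPM in NKX2-2 KO libraries, against 24.2, 26.8 and 32.9 CPM in NKX2-2 WT libraries. The KO libraries were all lower, by 1.90-fold (log2 fold change -0.93 ± 0.15 SE, edgeR adjusted p = 0.000315). In the CLEC16A experiment CLDN3 moved little although its groups did not overlap. It had 53.9, 52.9 and 53.5 CPM in CLEC16A KO libraries, against 46.2, 45.2 and 44.2 CPM in CLEC16A WT libraries (log2 fold change 0.24 ± 0.07 SE, edgeR adjusted p = 0.00858). That call was lost with upper-quartile scaling (0.17, edgeR adjusted p = 0.0611), in one fit of all 12 libraries (0.25, edgeR adjusted p = 0.0761) and on TPM (limma adjusted p = 0.229 to 0.318).

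CLDN1 (ENSG00000163347.6, chr3:190305701-190322475, minus strand) is the claudin without which the skin barrier fails. Its NKX2-2 KO libraries had 120.0, 109.8 and 98.8 CPM, against 104, 97.9 and 100.2 CPM in NKX2-2 WT libraries. These ranges overlap, and no change was called (log2 fold change 0.12 ± 0.10 SE, edgeR adjusted p = 0.398). CLDN1 had 157, 166 and 172 CPM in CLEC16A KO libraries, against 111, 109 and 102 CPM in CLEC16A WT libraries. All KO libraries lay above all WT libraries there, with a 1.54-fold rise (log2 fold change 0.62 ± 0.06 SE, edgeR adjusted p = 3.59e-08).

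CLDN6 (ENSG00000184697.7, chr16:3014712-3020071, minus strand) is a claudin of embryonic epithelia and of pluripotent stem cells. It had 31.2, 26.96 and 25.1 CPM in NKX2-2 KO libraries, against 33.7, 34.9 and 40.2 CPM in NKX2-2 WT libraries. The groups did not overlap, and the fall was small (log2 fold change -0.39 ± 0.12 SE, edgeR adjusted p = 0.0298). That call was lost with upper-quartile scaling (edgeR adjusted p = 0.0638), in every fit on TPM, and when any of 4 libraries was left out (NKX2-2 KO replicate 2 or 3, or NKX2-2 WT replicate 2 or 3, edgeR adjusted p = 0.0600 to 0.108). CLDN6 had 125, 134 and 121 CPM in CLEC16A KO libraries, against 76.0, 92.1 and 77.3 CPM in CLEC16A WT libraries, a 1.55-fold rise without overlap (log2 fold change 0.63 ± 0.08 SE, edgeR adjusted p = 3.30e-07). The CLEC16A call was lost in 2 of 3 fits on TPM (limma adjusted p = 0.0617 and 0.0690). Of the pluripotency genes, POU5F1 averaged at most 0.0752 CPM and NANOG at most 0.159 CPM in any group, so CLDN6 was read where both were near 0. Of 3 others, LIN28A was called higher in NKX2-2 KO libraries, and in CLEC16A KO libraries LIN28A was called lower and DPPA4 and TDGF1 higher. The sum over the list was 13.8 to 17.4 CPM in NKX2-2 KO and 10.6 to 13.0 CPM in NKX2-2 WT libraries. Most of it was LIN28A there, at 13.5 ± 1.5 CPM in NKX2-2 KO and 8.91 ± 1.2 CPM in NKX2-2 WT libraries (SD). The sum was 20.5 to 23.5 CPM in CLEC16A KO and 51.4 to 59.4 CPM in CLEC16A WT libraries. The part of such cells in the CLDN6 values was not tested.

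CLDN5 (ENSG00000184113.9, chr22:19523024-19527545, minus strand) seals the endothelium of blood vessels, that of the brain above all, and was called in the direction opposite to that of CLDN4 and CLDN7 in both experiments. It had 59.2, 48.8 and 59.1 CPM in NKX2-2 KO libraries, against 13.9, 13.6 and 20.4 CPM in NKX2-2 WT libraries. No libraries overlapped, and the 3.49-fold rise was the only call upwards among the 10 members (log2 fold change 1.80 ± 0.16 SE, edgeR adjusted p = 2.34e-06). In CLEC16A KO libraries it had 5.66, 7.51 and 5.62 CPM, against 16.6, 17.8 and 16.6 CPM in CLEC16A WT libraries. Here the KO libraries were all lower, by 2.71-fold (log2 fold change -1.44 ± 0.14 SE, edgeR adjusted p = 1.14e-08). The deposited TPM table lists CLDN5 at 0 in CLEC16A KO replicates 1 and 3 and in CLEC16A WT replicate 1, although the count table gives 175, 175 and 580 counts there, and on TPM the CLEC16A call was lost (limma adjusted p = 0.453 to 0.568).

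Endothelial markers were read beside CLDN5, since that is its best known site. Of 8 markers, 4 were called higher in NKX2-2 KO libraries (KDR, CDH5, TEK and EMCN) and 2 lower (EGFL7 and PECAM1). KDR, a VEGF receptor, averaged 10.6 ± 1.4 CPM in NKX2-2 KO and 4.10 ± 0.67 CPM in NKX2-2 WT libraries, and CDH5, the endothelial cadherin, 1.06 ± 0.29 and 0.399 ± 0.094 CPM (SD, n = 3 each). The summed level of the 8 was 49.2 to 58.2 CPM in NKX2-2 KO and 85.1 to 103 CPM in NKX2-2 WT libraries, most of it EGFL7. In the CLEC16A experiment PECAM1 was called higher and KDR and TIE1 lower, and the sum was 130 to 141 CPM in CLEC16A KO and 131 to 149 CPM in CLEC16A WT libraries. CDH5 averaged 0.235 ± 0.16 CPM in CLEC16A KO and 0.393 ± 0.16 CPM in CLEC16A WT libraries. The part of endothelial cells in the CLDN5 values was not tested.

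CLDN18 (ENSG00000066405.13, chr3:137998735-138033655, plus strand) is a claudin of stomach and lung epithelium, made from separate start sites in these organs. It was scarce, with 4.21, 4.85 and 4.96 CPM in NKX2-2 KO libraries, against 6.20, 4.75 and 5.76 CPM in NKX2-2 WT libraries. The ranges overlap, and no change was called (log2 fold change -0.25 ± 0.18 SE, edgeR adjusted p = 0.317). In CLEC16A KO libraries it had 3.43, 4.72 and 2.76 CPM, against 6.62, 6.34 and 6.13 CPM in CLEC16A WT libraries, without overlap and 1.75-fold lower (log2 fold change -0.81 ± 0.19 SE, edgeR adjusted p = 0.00144). Of 7 stomach markers, TFF1 and TFF2, the secreted trefoil peptides, were called higher there and SOX2 lower, with a summed level of 111 to 119 CPM in CLEC16A KO and 38.9 to 46.3 CPM in CLEC16A WT libraries. In the NKX2-2 experiment TFF1 and SOX2 were called higher, and the sum was 78.9 to 94.4 CPM in NKX2-2 KO and 67.4 to 87.6 CPM in NKX2-2 WT libraries. The gastrokines GKN1 and GKN2 were at 0 in all CLEC16A libraries and had 0 to 3 counts in the others. None of 4 lung and airway markers had enough counts to be tested. The part of stomach or lung cells in these values was not tested.

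Of the claudins that form pores, CLDN2 (ENSG00000165376.11, chrX:106900164-106930861, plus strand) conducts cations and water in leaky epithelia such as kidney tubule, bile duct and gut crypt. It had 22.8, 25.7 and 20.3 CPM in NKX2-2 KO libraries, against 36.1, 38.0 and 41.1 CPM in NKX2-2 WT libraries. The KO libraries were all lower, by 1.67-fold (log2 fold change -0.74 ± 0.12 SE, edgeR adjusted p = 0.000415). In CLEC16A KO libraries it had 124, 136 and 139 CPM, against 12.4, 12.1 and 12.4 CPM in CLEC16A WT libraries. That 10.8-fold rise was the largest fold change of any member tested in either experiment (log2 fold change 3.44 ± 0.08 SE, edgeR adjusted p = 5.60e-19).

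CLDN10 (ENSG00000134873.10, chr13:95433604-95579759, plus strand) makes a cation pore and an anion pore from alternative first exons, and was near the limit of detection. It had 13, 10 and 14 counts in NKX2-2 KO libraries, against 11, 2 and 3 counts in NKX2-2 WT libraries (log2 fold change 1.32 ± 0.57 SE, edgeR adjusted p = 0.0925). The groups overlap through NKX2-2 WT replicate 1, and without that library the difference was called, at 2.29 (edgeR adjusted p = 0.0234; 0.0234 to 0.303 over 13 alternatives). It had 0, 4 and 3 counts in CLEC16A KO libraries, against 14, 21 and 9 counts in CLEC16A WT libraries, and was below the filter for testing. Scaled to library size, the summed counts were 5.87 times higher in CLEC16A WT libraries, with a 95% counting interval of 2.62 to 15.5 that covers counting error only. CLDN10 shares 46.1% of its exon bases with DZIP1, a far more abundant gene on the opposite strand, and strand use in counting is not given in the sources used here. Its counts are uncertain for that reason.

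CLDN12 (ENSG00000157224.16, chr7:90383721-90513402, plus strand), a widely expressed claudin linked to calcium transport, differed least. Its NKX2-2 KO libraries had 52.7, 62.2 and 68.1 CPM, against 63.5, 64.2 and 67.8 CPM in NKX2-2 WT libraries (log2 fold change -0.10 ± 0.11 SE, edgeR adjusted p = 0.556). In CLEC16A KO libraries it had 80.4, 77.9 and 88.1 CPM, against 73.1, 81.3 and 67.0 CPM in CLEC16A WT libraries (log2 fold change 0.15 ± 0.08 SE, edgeR adjusted p = 0.112). Groups overlap in both experiments, and neither difference was called, although without CLEC16A WT replicate 2 the second was (0.22, edgeR adjusted p = 0.0243; 0.0243 to 0.994 over 16 alternatives).

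**Figure D2:**
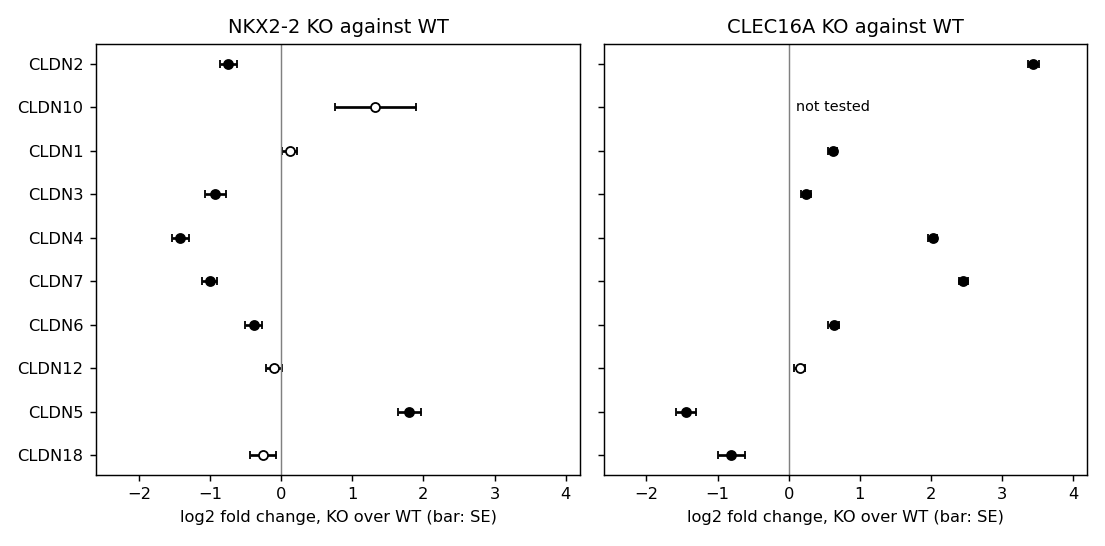
Log2 fold change of each claudin, KO over WT, in the NKX2-2 experiment (left) and the CLEC16A experiment (right), with the pore-forming CLDN2 and CLDN10 at the top. Bars are standard errors, filled points are called (edgeR adjusted p under 0.05) and open points are not. The values run from -1.41 to 1.80 on the left and from -1.44 to 3.44 on the right.

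Whether the knockouts differed in effect was tested by edgeR in a joint model of the 12 libraries. A difference was called for 8 of the 10 members, 6 of them with a lower effect of the NKX2-2 knockout and 2 with a higher one. Over 20494 genes, 38.2% were called, 20.4% as lower and 17.8% as higher. With upper-quartile scaling the median of all genes moved by over 0.1, to 0.16 against 0.04, and 57.2% of the calls were higher against 46.6%, while the same number of members was called. The NKX2-2 effect minus the CLEC16A effect was -4.17 ± 0.14 SE for CLDN2, -3.44 ± 0.12 for CLDN7 and -3.43 ± 0.13 for CLDN4 on the log2 scale (edgeR adjusted p = 2.89e-15, 4.25e-15 and 1.18e-14). Smaller differences of the same sign were called for CLDN3 (-1.16), CLDN6 (-1.01) and CLDN1 (-0.49). CLDN5 had a difference of 3.25 ± 0.21 SE (edgeR adjusted p = 3.76e-11) and CLDN10 one of 3.83 ± 1.01 SE (edgeR adjusted p = 0.00438), though from few counts. CLDN10 was below the filter in the CLEC16A experiment alone and entered the joint fit with its highest mean CPM in NKX2-2 KO libraries. Its exon overlap with DZIP1 also leaves this call uncertain. For CLDN12 (-0.24 ± 0.14 SE) and CLDN18 (0.56 ± 0.27 SE) the difference was not called, although without CLEC16A KO replicate 2 that of CLDN18 was (0.80, edgeR adjusted p = 0.0229; 0.0229 to 0.261 over 18 alternatives). The experiments have separate WT libraries, and whatever else differs between the experiments cannot be told apart from the knocked-out gene. Endocrine markers summed to 1983 to 2126 CPM in NKX2-2 WT and 25463 to 28382 CPM in CLEC16A WT libraries. Mesenchymal markers summed to 2275 to 2556 CPM in NKX2-2 WT and 150 to 161 CPM in CLEC16A WT libraries. Epithelial sums were nearer, at 2287 to 2640 CPM and 1886 to 2051 CPM.

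Levels between genes were compared by the deposited TPM, which is scaled by transcript length. TPM cannot be set across the experiments, since its sum over listed genes reached 41.4% to 47.2% of the full scale in NKX2-2 libraries and 99.7% to 99.8% in CLEC16A libraries. CLDN7 had the highest TPM in NKX2-2 KO libraries, at 39.3 ± 5.0 TPM, followed by CLDN5 (29.9 ± 2.8) and CLDN1 (23.7 ± 3.3), with no overlap between neighbours (SD, n = 3 each). CLDN6 and CLDN12 came next and overlapped, then CLDN3 and CLDN4, which overlapped too, then CLDN2, CLDN18 and CLDN10. In NKX2-2 WT libraries CLDN7 led with 76.8 ± 4.1 TPM. CLDN1, CLDN6, CLDN4, CLDN3 and CLDN12 followed between 21.7 ± 1.2 and 14.5 ± 0.077 TPM, each overlapping the next. CLDN2 (9.67 ± 0.50) and CLDN5 (7.08 ± 0.50) stood below them, above CLDN18 and CLDN10. These orders hold for the deposited TPM. Counts divided by the total exon length of each gene gave another order in NKX2-2 KO libraries, with means of 29.9 CPM per kb for CLDN1, 22.3 for CLDN7, 16.2 for CLDN5 and 15.97 for CLDN6.

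The order also differed between the CLEC16A groups. In CLEC16A KO libraries CLDN7 led with 606 ± 11 TPM, ahead of CLDN4 (205 ± 9.3) and CLDN6 (179 ± 5.3), and none of these overlapped (SD, n = 3 each). CLDN1 (88.3 ± 4.6), CLDN2 (82.7 ± 4.4) and CLDN3 (77.3 ± 1.5) each overlapped the next, and CLDN12 (47.2 ± 4.9) came below them. In CLEC16A WT libraries CLDN6 (131 ± 23) and CLDN7 (126 ± 9.7) shared the top with overlapping ranges. CLDN3 (71.8 ± 2.6), CLDN1 (62.8 ± 3.8), CLDN4 (50.6 ± 5.9) and CLDN12 (47.0 ± 4.8) followed, the last pair overlapping. CLDN2 stood at 8.37 ± 0.27 TPM, CLDN18 at 3.62 ± 0.20 and CLDN10 at 0.353 ± 0.12 in CLEC16A WT libraries, and CLDN5 cannot be placed in that experiment because of the listed zeros. By CPM per kb of exon, CLDN6 (47.0), CLDN3 (35.5) and CLDN1 (29.3) stood above CLDN7 (21.9) in CLEC16A WT libraries, while CLDN7 (120.1) also led in CLEC16A KO libraries.

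**Figure D3:**
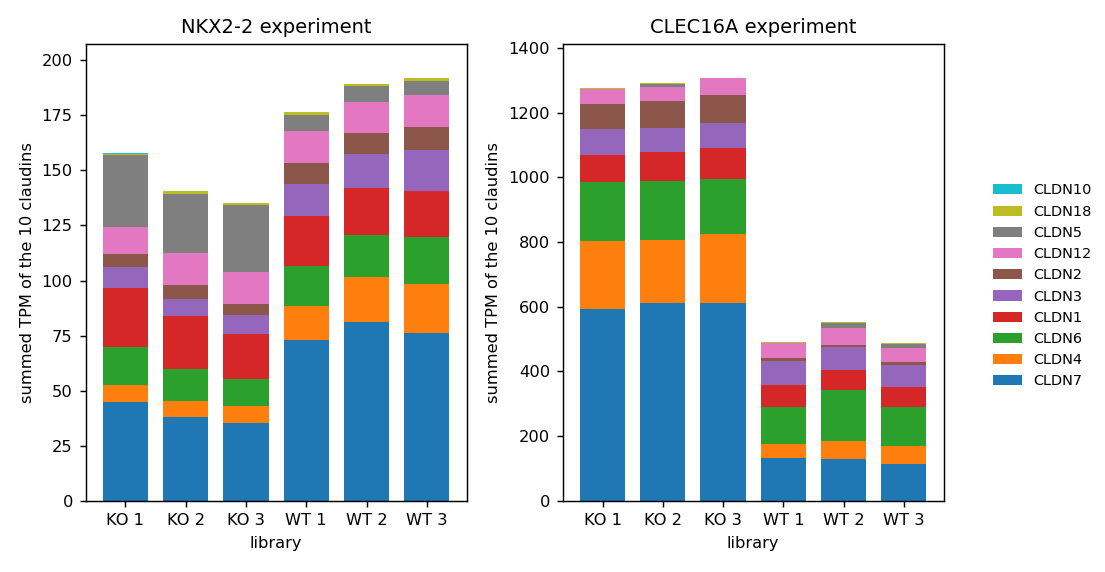
Summed TPM of the 10 claudins in each library, stacked by gene, for the NKX2-2 experiment (left) and the CLEC16A experiment (right, on its own scale). Stacks reach 135 to 158 TPM in NKX2-2 KO and 177 to 192 TPM in NKX2-2 WT libraries, and 1274 to 1307 TPM in CLEC16A KO and 488 to 554 TPM in CLEC16A WT libraries.

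Summed over the 10 genes, claudin transcripts came to 145 ± 12 TPM in NKX2-2 KO and 186 ± 8.2 TPM in NKX2-2 WT libraries, a ratio of 0.777. They came to 1291 ± 16 TPM in CLEC16A KO and 511 ± 37 TPM in CLEC16A WT libraries, a ratio of 2.53 (SD, n = 3 each). Neither pair of groups overlaps, and both two-sided exact permutation tests gave p = 0.1, the smallest that 3 against 3 libraries allow (0.1 after adjustment over both experiments). On the deposited TPM, composition moved as well as the sum. Shares by CPM per kb of exon would differ, and the CLEC16A sums include the zeros listed for CLDN5. CLDN5 made up 20.7% ± 1.7 of the claudin TPM in NKX2-2 KO and 3.81% ± 0.43 in NKX2-2 WT libraries, while CLDN7 made up 27.1% ± 1.2 and 41.3% ± 1.6. CLDN7 made up 47.0% ± 0.48 in CLEC16A KO and 24.7% ± 2.1 in CLEC16A WT libraries, while CLDN6 made up 13.9% ± 0.57 and 25.5% ± 2.8. Without CLDN7, which had the highest mean TPM over the 6 libraries of each experiment, the NKX2-2 ratio was 0.963 and the CLEC16A ratio 1.78. Without CLDN5, which rose with NKX2-2 knockout and was left out after its values were seen, the NKX2-2 ratio was 0.641.

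Cell type markers moved in the same libraries. Of 6 markers of epithelium, 3 were called lower in NKX2-2 KO libraries, and their sum was 1834 to 2059 CPM in NKX2-2 KO and 2287 to 2640 CPM in NKX2-2 WT libraries. EPCAM, the partner of CLDN7, averaged 290.0 ± 24 CPM in NKX2-2 KO and 459 ± 34 CPM in NKX2-2 WT libraries (SD, n = 3 each). All 8 mesenchymal markers were called higher, with sums of 5807 to 6424 CPM in NKX2-2 KO and 2275 to 2556 CPM in NKX2-2 WT libraries. Of 6 endocrine markers 4 were called lower and 1 higher there, with sums of 1074 to 1268 CPM in NKX2-2 KO and 1983 to 2126 CPM in NKX2-2 WT libraries. Of 6 intestinal markers 4 were called lower and none higher, with sums of 766 to 817 CPM in NKX2-2 KO and 1139 to 1243 CPM in NKX2-2 WT libraries. Of 6 liver markers 1 was called lower and 2 higher (9443 to 11917 CPM in NKX2-2 KO and 9162 to 10844 CPM in NKX2-2 WT libraries), and of 5 duct markers tested 2 in each direction (142 to 162 CPM in NKX2-2 KO and 152 to 189.9 CPM in NKX2-2 WT libraries). In the CLEC16A experiment 5 of 6 epithelial and all 6 intestinal markers were called higher, with intestinal sums of 1929 to 2159 CPM in CLEC16A KO and 737 to 758 CPM in CLEC16A WT libraries. Of 8 mesenchymal markers 6 were called lower and none higher (sums of 44.9 to 50.9 CPM in CLEC16A KO and 150 to 161 CPM in CLEC16A WT libraries). Of 6 liver markers 4 were called higher there (14368 to 15700 CPM in CLEC16A KO and 5969 to 6250.3 CPM in CLEC16A WT libraries), as were all 5 duct markers tested (361 to 390.1 CPM in CLEC16A KO and 206 to 230.4 CPM in CLEC16A WT libraries). All 6 endocrine markers were called lower, with sums of 14119 to 16406 CPM in CLEC16A KO and 25463 to 28382 CPM in CLEC16A WT libraries. The part of these cell types in the claudin differences was not tested.

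Of 14 other claudin genes listed, 5 had enough counts to be tested in the NKX2-2 experiment and 7 in the CLEC16A experiment. CLDN11, a claudin of myelin and of Sertoli cells, had 43.8, 41.4 and 48.8 CPM in NKX2-2 KO libraries, against 17.6, 20.2 and 18.8 CPM in NKX2-2 WT libraries, without overlap (log2 fold change 1.24 ± 0.12 SE, edgeR adjusted p = 3.89e-06). CLDN23 had 17.6, 17.7 and 17.7 CPM in NKX2-2 KO libraries, against 32.9, 32.1 and 34.4 CPM in NKX2-2 WT libraries (log2 fold change -0.91 ± 0.11 SE, edgeR adjusted p = 2.88e-05). CLDN23 had 31.5, 32.6 and 31.5 CPM in CLEC16A KO libraries, against 16.3, 15.7 and 14.7 CPM in CLEC16A WT libraries (log2 fold change 1.03 ± 0.09 SE, edgeR adjusted p = 3.21e-09). CLDN23, known from gut epithelium, thus followed the direction of CLDN4 and CLDN7 in both.

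Further calls among them were weak, and those of CLDN15, CLDN11 and CLDN14 were lost by DESeq2 (adjusted p = 0.0718, 0.0819 and 0.0769). CLDN15, a pore of the small intestine, was called higher in NKX2-2 KO libraries (log2 fold change 0.45, edgeR adjusted p = 0.0292), a call lost when NKX2-2 KO replicate 1 or 2 or any NKX2-2 WT replicate was left out (edgeR adjusted p = 0.0544 to 0.10). CLDN11 was called lower in CLEC16A KO libraries (-0.46, edgeR adjusted p = 0.0431), and CLDN14, which inhibits paracellular calcium uptake in the kidney, higher (1.41, edgeR adjusted p = 0.0378). CLDN11 lost that call without CLEC16A KO replicate 1 or 2 or CLEC16A WT replicate 1 or 3 (edgeR adjusted p = 0.0945 to 0.157), and CLDN14 without CLEC16A KO replicate 1 or 3 or CLEC16A WT replicate 1 or 3 (edgeR adjusted p = 0.0731 to 0.185). CLDN16, the magnesium pore of the kidney, was called higher at a mean of 1.32 ± 0.42 CPM in CLEC16A KO and 0.460 ± 0.28 CPM in CLEC16A WT libraries (log2 fold change 1.5, edgeR adjusted p = 0.00905), and lost the call without CLEC16A KO replicate 3 (edgeR adjusted p = 0.0669; 0.00204 to 0.0777 over 15 alternatives).

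The partners of claudins in the tight junction were read from a list of 35 scaffold, polarity and membrane proteins. In the NKX2-2 experiment 8 of the 34 tested were called higher, 12 lower and 14 not, with a median log2 fold change of -0.23 against 0.03 for all genes, of which 16.6% were called higher and 16.8% lower. TJP3, the scaffold ZO-3, averaged 9.34 ± 0.61 CPM in NKX2-2 KO and 21.3 ± 1.1 CPM in NKX2-2 WT libraries (log2 fold change -1.19, edgeR adjusted p = 9.60e-06). CRB3, an apical polarity protein, fell by 0.83, LSR, a receptor of tricellular junctions, by 0.74 and CGN, the cytoplasmic linker cingulin, by 0.79 on the log2 scale (edgeR adjusted p = 0.000213, 0.000218 and 0.000697).

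The same list leaned upwards with CLEC16A knockout, where 20 of 34 were called higher, 6 lower and 8 not, with a median of 0.48 against -0.01 for all genes, of which 23.7% were called higher and 21.3% lower. CGN averaged 168 ± 4.5 CPM in CLEC16A KO and 52.3 ± 2.5 CPM in CLEC16A WT libraries (log2 fold change 1.68, edgeR adjusted p = 3.15e-15). F11R, the junctional adhesion molecule JAM-A, had 169 ± 13 CPM in CLEC16A KO and 59.6 ± 3.7 CPM in CLEC16A WT libraries (log2 fold change 1.5, edgeR adjusted p = 1.02e-13). TJP3 rose by 2.07 and MARVELD3, a tetraspan relative of occludin, by 2.17 on the log2 scale (edgeR adjusted p = 3.24e-13 and 7.02e-12).

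Cell adhesion genes of epithelium, a list of 19, had 2 called higher, 8 lower and 7 not among 17 tested in the NKX2-2 experiment (median -0.41, against 0.03 for all genes, of which 16.6% were called higher and 16.8% lower). NECTIN1, an adherens junction receptor, averaged 45.5 ± 6.2 CPM in NKX2-2 KO and 144 ± 24 CPM in NKX2-2 WT libraries (log2 fold change -1.67, edgeR adjusted p = 1.50e-06). SPINT1, an inhibitor of the membrane protease matriptase, fell by 1.25, ST14, that protease, by 0.90 and CDH1, E-cadherin, by 0.84 (edgeR adjusted p = 1.29e-05, 2.88e-05 and 0.000206). In the CLEC16A experiment 16 of 19 were called higher, 1 lower (NECTIN1) and 2 not (median 0.67, against -0.01 for all genes, of which 23.7% were called higher and 21.3% lower). There SPINT1 averaged 504 ± 43 CPM in CLEC16A KO and 97.9 ± 3.8 CPM in CLEC16A WT libraries (log2 fold change 2.36, edgeR adjusted p = 3.50e-17). CDH1 rose by 2.14, ST14 by 2.23 and PKP2, a desmosomal plaque protein, by 1.63 (edgeR adjusted p = 4.37e-16, 7.64e-15 and 3.72e-15).

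Transcription factors known to act on claudin genes, a list of 26, had 3 called higher, 10 lower and 11 not among 24 tested in the NKX2-2 experiment (median -0.32, against 0.03 for all genes, of which 16.6% were called higher and 16.8% lower). ZEB2, an E-box repressor of epithelial genes, averaged 86.6 ± 11 CPM in NKX2-2 KO and 29.1 ± 4.7 CPM in NKX2-2 WT libraries (log2 fold change 1.57, edgeR adjusted p = 2.10e-06). SNAI2, another such repressor, had 10.9 ± 2.0 CPM in NKX2-2 KO and 2.94 ± 0.40 CPM in NKX2-2 WT libraries (log2 fold change 1.90, edgeR adjusted p = 7.53e-06). Of the other repressors of the same E-box, SNAI1 was called lower, with 1.65 ± 0.58 CPM in NKX2-2 KO and 2.84 ± 0.30 CPM in NKX2-2 WT libraries (log2 fold change -0.80, edgeR adjusted p = 0.0438), and ZEB1 was not called (-0.18, edgeR adjusted p = 0.277). ELF3, an epithelial ETS factor, fell by 1.12 and HNF4A, a nuclear receptor of gut and liver epithelium, by 1.19 (edgeR adjusted p = 8.04e-06 and 2.95e-05). Mesenchymal cells, whose markers rose in these libraries, express ZEB2 and SNAI2 too, and their part was not tested.

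With CLEC16A knockout 19 of 25 factors tested were called higher, 3 lower and 3 not (median 0.96, against -0.01 for all genes, 23.7% of them called higher and 21.3% lower). KLF5, a factor of gut crypt cells, averaged 363 ± 27 CPM in CLEC16A KO and 117 ± 7.4 CPM in CLEC16A WT libraries (log2 fold change 1.64, edgeR adjusted p = 1.47e-14). ELF3 rose by 1.47, HNF4A by 1.13 and STAT3, the effector of cytokine receptors, by 0.97 (edgeR adjusted p = 7.17e-14, 1.30e-12 and 9.79e-12). The E-box repressors SNAI1 (1.71, edgeR adjusted p = 1.31e-07) and SNAI2 (0.91, edgeR adjusted p = 0.0118) were called higher as well, ZEB1 was called lower (-0.79, edgeR adjusted p = 1.64e-07) and ZEB2 was not called (-0.96, edgeR adjusted p = 0.0795). Those E-box factors beyond ZEB2 and SNAI2 of the NKX2-2 experiment were named after their values were seen. The 3 lists were chosen with earlier results of these data known, so their counts are descriptions.

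**Figure D4:**
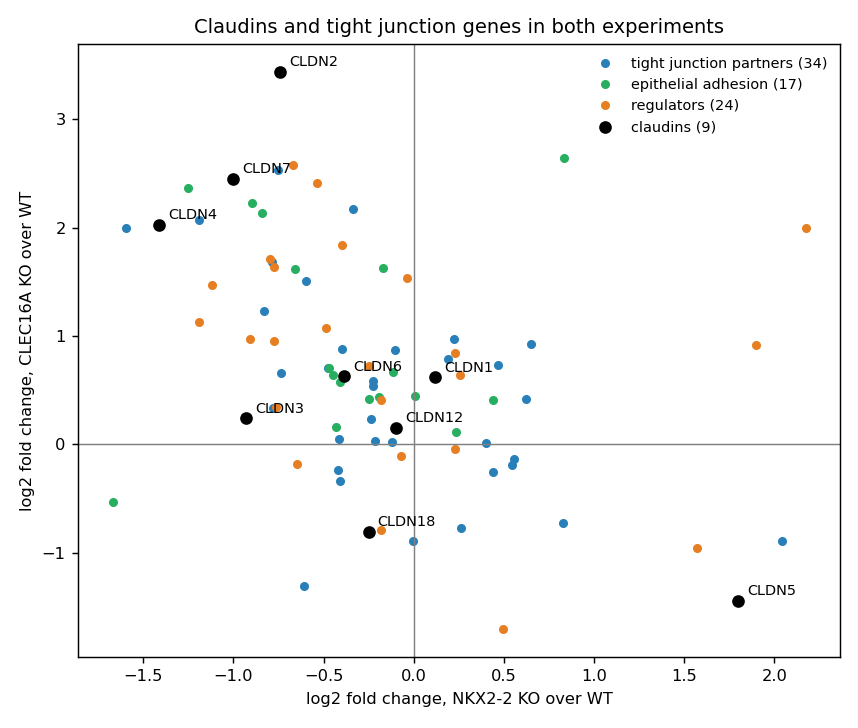
Log2 fold change in the CLEC16A experiment against that in the NKX2-2 experiment, KO over WT, for genes tested in both. Black points are 9 claudins, and coloured points are 34 tight junction partners, 17 epithelial adhesion genes and 24 transcription factors. CLDN2, CLDN4 and CLDN7 lie at the upper left and CLDN5 at the lower right.

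Claudins that moved together were described by Pearson's r of log2 CPM over the 12 libraries, each experiment centred on its own mean. That r mostly reflects the KO to WT gaps, and may also reflect other differences between libraries that genes share. The highest pairs were CLDN2 with CLDN7 (0.98) and CLDN4 with CLDN7 (0.97), and the lowest was CLDN4 with CLDN5 (-0.92). Among 16975 genes, the nearest to the summed claudin level were SEMA3B, TMPRSS2 and PLA2G2A (each 0.996). The nearest to CLDN2 were MMP14 (0.998), TMPRSS2 (0.997) and MUC13 (0.996), and the nearest to CLDN5 were GPC1 (0.988), RAB34 (0.985) and CRH (0.985).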

How the data were processed

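Bulk RNA-seq of total RNA gave 12 libraries in 4 groups of 3. Reads were trimmed with fastp 0.22.0, aligned with HISAT2 2.2.1 to hg38 and quantified with StringTie 2.1.7, per the submitters' processing notes, which give no order or role for these tools. The deposited tables hold whole-number counts and, separately, TPM for each experiment. The sources used here do not give the read counter, the annotation release, the use of strand or the TPM denominator. The mitochondrial genes took 7.05% to 10.2% of the counts in the NKX2-2 tables and none in the CLEC16A tables, and 45 duplicate rows of the Y pseudoautosomal region were left out.

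Deposited counts were tested per experiment with edgeR 4.0.16 (R 4.3.3; TMM, filterByExpr, robust quasi-likelihood fit, Benjamini-Hochberg over all genes tested, threshold 0.05), and the difference of the knockout effects in one fit of all 12 libraries. The procedure was tested on simulated data with the same dispersion for all genes and far fewer changed genes than were called here. That simulation therefore does not check the calls given here. The authors' TPM served to compare levels between genes, and limma 3.58.1 on log2(TPM + 1), for genes with a mean of at least 0.5 TPM in a group, was an alternative. Others were DESeq2 1.42.0, other scalings and filters, a replicate block and leaving out each library. Promoters came from RefSeq through Python 3.11.15, gene positions from GENCODE v29.

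The members and lists were chosen with earlier results of these data known. Genes named are all members, the targeted genes, other claudins that were called, from each of 3 lists up to 4 genes with the smallest p per experiment, and the 3 genes most like the summed claudins and the member with the largest change in each experiment. Cell type markers came from separate lists. Depth sets the precision of each count, and the counting interval covers counting error only.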

Additional observations from a re-analysis of the deposited data

Results flagged for a closer look

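The effect of NKX2-2 knockout differed from that of CLEC16A knockout for 8 of the 10 claudins, by a test of the difference itself over all 12 libraries (edgeR, Benjamini-Hochberg over all genes). On the log2 scale, the NKX2-2 effect minus the CLEC16A effect was -4.17 for CLDN2 and -3.44 for CLDN7, and it was -3.43 for CLDN4. It was -1.16 for CLDN3 and -1.01 for CLDN6, and -0.49 for CLDN1. It was 3.25 for CLDN5 and 3.83 for CLDN10, the CLDN10 value resting on 37 counts in NKX2-2 KO and 16 in NKX2-2 WT libraries, and on 7 counts in CLEC16A KO and 44 in CLEC16A WT libraries. Each of these differences kept its sign and its call under every alternative on counts that gave it a value. CLDN10 had none with a minimum of 1 CPM in 3 libraries. It was below the filter in the CLEC16A experiment alone, and its exon overlap with DZIP1 leaves its counts uncertain. The difference was not fitted on TPM, where the CLEC16A calls of CLDN3 and CLDN5 were lost in every fit.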

How the results depend on the processing

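No claudin changed sign under any alternative run. With limma on log2(TPM + 0.1), and on log2(TPM + 1) without a filter, 5 members were called in the CLEC16A experiment, against 8 by edgeR on counts. Over the alternatives that leave out no library, 240 results for members kept their side of the threshold, 14 lost the call and 1 gained it, and over those that leave out one, 227 kept it, 4 lost it and 3 gained it. Leaving out each library in turn gave 5 to 7 called members in the NKX2-2 experiment, 8 to 9 in the CLEC16A experiment and 8 to 9 for the difference. Without CLDN7, the member with the highest mean TPM over each experiment's libraries, the ratio of summed TPM was 0.963 (NKX2-2) and 1.78 (CLEC16A), and without CLDN5, an alternative chosen after seeing the data, it was 0.641 in the NKX2-2 experiment. The change of the CLEC16A gene in the NKX2-2 experiment, 0.05 and not called, ranged from -0.069 to 0.14 over its alternatives and was negative without NKX2-2 KO replicate 1 (-0.054) or NKX2-2 WT replicate 3 (-0.069). The causes were not tested. The labels do not say whether replicate numbers pair the libraries. Deviations of same-numbered libraries correlated by 0.109, 0.0254 and 0.321 in the NKX2-2 experiment and by 0.0115, 0.0108 and -0.0302 in the CLEC16A experiment. NKX2-2 KO replicate 3 correlated best with WT replicate 3, and negatively with WT replicates 1 and 2 (-0.185 and -0.191). NKX2-2 KO replicate 1 correlated best with WT replicate 2. Pairing in the NKX2-2 experiment is therefore not settled, and the main tests left it out. With the replicate block, 8037 genes were called in the NKX2-2 experiment (5824 without), 8763 in the CLEC16A experiment (8985 without) and 8889 for the difference (7831 without), and 7, 8 and 8 members (6, 8 and 8 without). The added member was CLDN10 in the NKX2-2 experiment (1.43, edgeR adjusted p = 0.0423), while CLDN11 (0.0560) and CLDN14 (0.0596) lost their CLEC16A calls under the block. In the NKX2-2 experiment CGN (0.0885) and HNF4A (0.0688) lost theirs with limma on log2(TPM + 1) without a filter. With 7 to 44 counts per group, CLDN10 is limited by depth.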

Other observations

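Among the tight junction partners, further genes were called, and those given here were picked after their values were seen. ILDR1, a component of tricellular junctions, averaged 6.26 ± 0.75 CPM in CLEC16A KO and 1.1 ± 0.10 CPM in CLEC16A WT libraries (log2 fold change 2.53, edgeR adjusted p = 1.55e-09). JAM2, an adhesion molecule of endothelial and mesenchymal cells, averaged 2.50 ± 0.59 CPM in NKX2-2 KO and 0.605 ± 0.26 CPM in NKX2-2 WT libraries (2.04, edgeR adjusted p = 0.000820). OCLN, occludin, averaged 69.2 ± 8.1 CPM in CLEC16A KO and 36.3 ± 1.6 CPM in CLEC16A WT libraries (0.93, edgeR adjusted p = 4.46e-09). In the NKX2-2 experiment OCLN had few counts, with 27, 33 and 95 in NKX2-2 KO and 44, 33 and 31 in NKX2-2 WT libraries. It was not called there (0.65 ± 0.42 SE, edgeR adjusted p = 0.257), and so few counts do not show that occludin was unchanged. OCLN averaged 1.84 CPM in NKX2-2 WT and 36.3 CPM in CLEC16A WT libraries. TJP1 (4.01 and 69.8 CPM) and MARVELD2 (2.47 and 47.4 CPM) had similar gaps between the WT groups. CXADR (49.3 and 52.2 CPM) and F11R (55.3 and 59.6 CPM) did not. Whether these genes were counted alike in both experiments was not tested. NKX2-2 itself averaged 63.5 ± 4.0 CPM in CLEC16A KO and 121 ± 9.0 CPM in CLEC16A WT libraries (-0.93, edgeR adjusted p = 3.53e-10).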
